A study of Mus musculus with 8 samples.

Results

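Cholesterol synthesis genes controlled by the transcription factor SREBP2 were examined in the cerebral cortex and hippocampus of mice that had received the neonicotinoid insecticide clothianidin. The set was chosen by gene name, with earlier results of these data known. It holds 7 genes of the 19505 named genes on the arrays: Hmgcs1, Idi1, Fdft1, Sqle, Lss, Dhcr7 and Insig1. Each was read by 1 probe set, and all 7 passed the filter on low values. Clothianidin is an agonist of nicotinic acetylcholine receptors, and 50 mg/kg/day of it or the vehicle, 1% DMSO, was given to males for 2 weeks. They were 12 weeks old per the labels, which state no strain, since the tag for it holds the sex. The 4 groups were control cortex, exposed cortex, control hippocampus and exposed hippocampus, each with 2 arrays of total RNA from the whole tissue. The label of an array ends in a number, 1 or 6 in the control groups and 3 or 6 in the exposed groups, and what this number stands for is not stated. Nothing in the labels says that the arrays of a group came from separate animals, so the p-values cover only the spread between these arrays, and that spread may be technical. All values are normalized expression on the log2 scale, where a difference of 1 is a doubling.

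Nearly all cholesterol of the brain is made there, because the blood-brain barrier keeps out circulating lipoproteins, and in the adult brain glial cells supply much of it. SREBP2 is made as a membrane protein of the endoplasmic reticulum, bound to the escort protein SCAP. When sterols are scarce, SCAP carries it to the Golgi apparatus, where proteases cut free a part that enters the nucleus and switches on the genes of the pathway. When sterols are plentiful, INSIG proteins hold SCAP and SREBP2 in the endoplasmic reticulum. INSIG1 is itself made from an SREBP target gene, so its transcript is often read together with those of the enzymes.

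SREBP2 binds sterol regulatory elements, usually beside boxes for the factors NF-Y and Sp1, and because the genes are grouped by this control the stretches of promoter that hold such letters are shown for 4 of them. The sequences are from RefSeq on the mouse build GRCm38.p6, + strand, 150 bases each, all ahead of the annotated start of the gene, with capitals for the sterol element and for CCAAT boxes, which read ATTGG on this strand.
Hmgcs1 (chr13:119690175-119690324, from 176 to 27 bases before the start): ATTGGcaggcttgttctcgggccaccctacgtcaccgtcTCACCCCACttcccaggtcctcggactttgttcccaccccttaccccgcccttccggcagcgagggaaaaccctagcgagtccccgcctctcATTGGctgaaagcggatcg
Idi1 (chr13:8885456-8885605, from 150 bases before the start to 1 before it): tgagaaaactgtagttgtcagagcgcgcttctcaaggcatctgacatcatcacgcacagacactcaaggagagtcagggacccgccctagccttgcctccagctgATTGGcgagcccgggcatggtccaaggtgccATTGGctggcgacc
Lss (chr10:76531415-76531564, from 150 bases before the gene's annotated start to 1 before it, which is 190 to 41 before the start its promoter window uses): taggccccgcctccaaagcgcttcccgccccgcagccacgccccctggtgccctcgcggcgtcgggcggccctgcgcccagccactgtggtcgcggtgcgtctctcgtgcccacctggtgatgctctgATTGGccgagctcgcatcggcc
Insig1 (chr5:28071196-28071345, from 216 to 67 bases before the start): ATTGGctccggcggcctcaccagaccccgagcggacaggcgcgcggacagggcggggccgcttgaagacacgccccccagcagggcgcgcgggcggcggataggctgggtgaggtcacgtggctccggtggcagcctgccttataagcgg

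Both strands of the 250 bases before each start were searched. The sterol element TCACNCCAC was found in the window of Hmgcs1, 137 to 129 bases before the start, and in 1 of the 5 members that have a window, against 1.225% of 27025 genes. The shorter form TCACNCCA, which overlaps it, was found at the same place and in 4.204% of genes. A CCAAT box was present in 5 of 5 members and 37.495% of genes, and the Sp1 box GGGCGG in 5 of 5 members and 35.356% of genes. Dhcr7 has 3 windows, which were counted together. These matches describe letters in a window and do not show that a factor bound there.

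The array values of the members follow in the order of the pathway, with array 1 or 3 of a group first and array 6 second. Hmgcs1, which makes HMG-CoA at the entry to the mevalonate pathway, measured 14.58 and 14.75 in control cortex, 14.58 and 14.87 in exposed cortex, 14.69 and 14.87 in control hippocampus and 14.50 and 14.81 in exposed hippocampus. Its 8 values spanned 0.37, and its residual SD of 0.17 was lower than that of all but 16% of probe sets tested. Idi1, which interconverts the isoprenoid building blocks, measured 9.39 and 10.13 in control cortex, 9.92 and 10.81 in exposed cortex, 9.29 and 9.80 in control hippocampus and 9.50 and 9.99 in exposed hippocampus. It was the most variable member: its values spanned 1.52, with array 6 of exposed cortex highest, and its residual SD of 0.48 lay at the 88.3 percentile of probe sets.

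Fdft1, squalene synthase, which commits the pathway to sterols, measured 11.80 and 12.16 in control cortex, 11.68 and 12.16 in exposed cortex, 11.44 and 11.43 in control hippocampus and 11.75 and 11.23 in exposed hippocampus. The control hippocampus arrays lay below both cortex groups, and exposed hippocampus overlapped exposed cortex. Sqle, the squalene epoxidase, measured 8.22 and 8.76 in control cortex, 8.28 and 8.83 in exposed cortex, 8.23 and 8.80 in control hippocampus and 8.64 and 8.77 in exposed hippocampus. Both cortex groups and control hippocampus covered nearly the same range, and exposed hippocampus a narrower one that overlapped theirs. The gap between the arrays of a group was larger than any gap between group means in every group but exposed hippocampus.

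Lss, which closes the rings to form lanosterol, measured 8.77 and 8.07 in control cortex, 8.47 and 8.85 in exposed cortex, 8.17 and 8.96 in control hippocampus and 8.64 and 8.25 in exposed hippocampus. All 4 groups overlapped, and both the lowest and the highest value came from control arrays. Dhcr7, the reductase of the last step to cholesterol, measured 8.35 and 8.79 in control cortex, 8.56 and 8.15 in exposed cortex, 8.89 and 9.25 in control hippocampus and 9.11 and 8.46 in exposed hippocampus. Control hippocampus was high and overlapped only exposed hippocampus.

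Insig1, the sterol-dependent brake on SREBP2, measured 10.30 and 10.10 in control cortex, 10.49 and 11.05 in exposed cortex, 10.11 and 9.95 in control hippocampus and 10.63 and 10.09 in exposed hippocampus. Both exposed cortex arrays were above all 4 control arrays. In exposed hippocampus, array 3 was above all 4 control arrays and array 6 was above only array 6 of control hippocampus.

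By group mean, Idi1 and Insig1 were highest in exposed cortex and lowest in control hippocampus, while Dhcr7 ran the other way, from control hippocampus down to exposed cortex. Lss was likewise highest in exposed cortex, but lowest in control cortex. Hmgcs1 was highest in control hippocampus, Fdft1 in control cortex and Sqle in exposed hippocampus. For each of the 7 members every group overlapped the next one in its order, so no step between neighbouring groups was larger than the spread of the arrays.

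**Figure D1:**
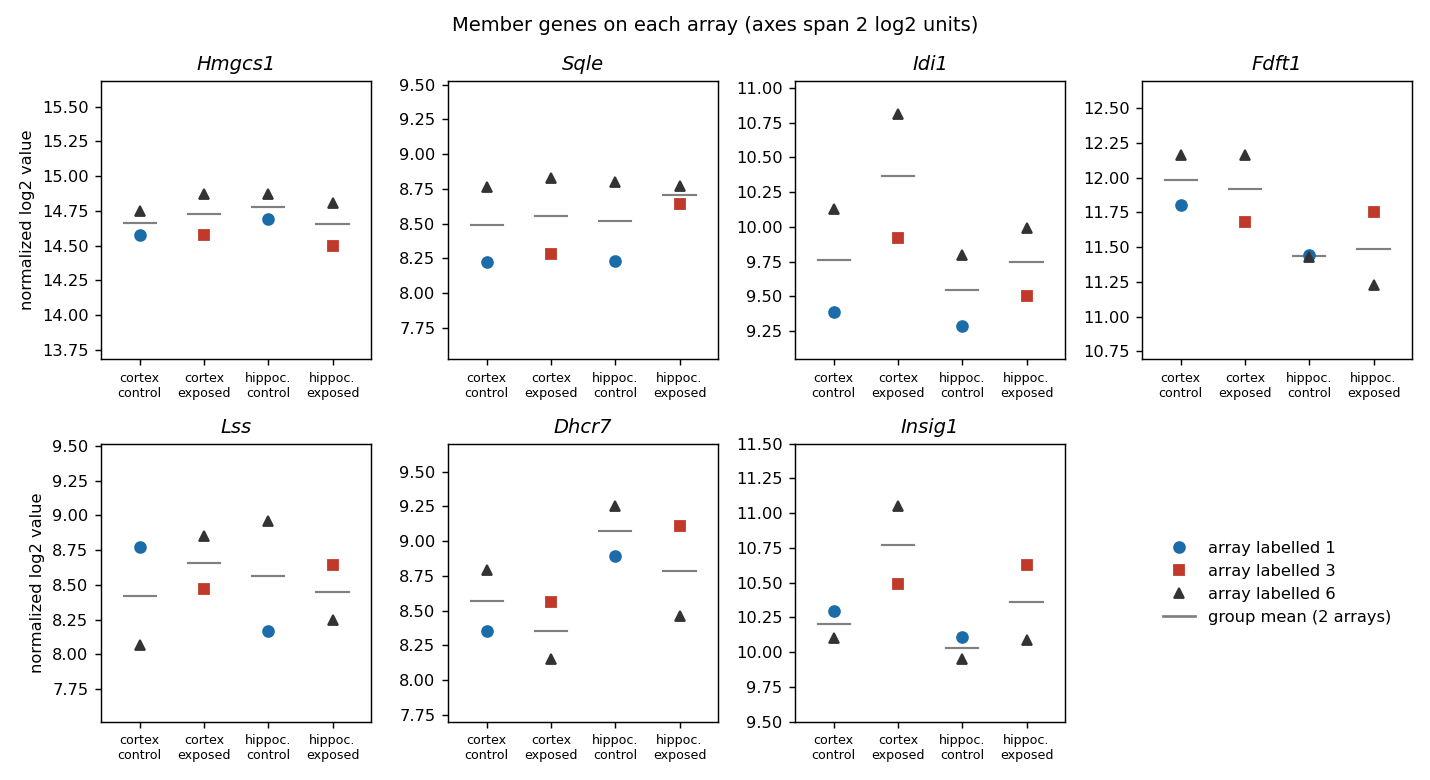
Normalized log2 value of each member (vertical axis, 2 log2 units in every panel) on the arrays of the 4 groups; points are single arrays, marked by the number in their label, and lines are group means. Insig1 lies higher in both exposed cortex arrays than in either control cortex array, while most other groups overlap.

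The first comparison asked whether exposure changed the pathway in cortex. None of the 7 members passed limma's test at an adjusted p of 0.05, and the adjusted p ranged from 0.808 to 0.992. Insig1 had means of 10.20 ± 0.14 (control; SD, n = 2) and 10.77 ± 0.40 (exposed; SD, n = 2), a difference of 0.57 (SE 0.28, 95% interval -0.04 to 1.18) or 1.48-fold, with adjusted p = 0.808. It was the member whose exposed arrays did not overlap the controls, higher in 2 of 2 arrays, which 17.1% of all probe sets tested also did, with 21.4% lower without overlap. The difference was 0.29 without exposed array 6 and 0.85 without exposed array 3. Idi1 had the largest difference, 0.61 (SE 0.36, 95% interval -0.18 to 1.39; 1.52-fold, adjusted p = 0.816), with means of 9.76 ± 0.52 (control; SD, n = 2) and 10.37 ± 0.63 (exposed; SD, n = 2). Its groups overlapped, and the difference was 0.16 without exposed array 6 and 1.05 without exposed array 3.

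The other members differed less in cortex: Lss by 0.24, Sqle by 0.07, Hmgcs1 by 0.06, Fdft1 by -0.06 (0.04 after quantile normalization) and Dhcr7 by -0.22, all with overlapping arrays. Of the 7 values 5 were positive and 2 negative, with a median of 0.07 against -0.03 for all 14804 probe sets. No member had an unadjusted p under 0.05, where 6.18% of all probe sets did; 0.00675% (1 probe set, of Nr4a2) had an adjusted p under 0.05. The 95% intervals show what size of change these arrays leave possible. For Hmgcs1 the interval ran from -0.40 to 0.52, and for Sqle from -0.61 to 0.74.

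In hippocampus none of the members passed either (adjusted p from 0.955 to 0.993). Insig1 had means of 10.03 ± 0.11 (control; SD, n = 2) and 10.36 ± 0.38 (exposed; SD, n = 2), a difference of 0.33 (SE 0.28, 95% interval -0.28 to 0.94; 1.26-fold). Its arrays overlapped, and the difference was 0.06 without exposed array 3 and 0.60 without exposed array 6. Dhcr7 differed by -0.29 (SE 0.31, 95% interval -0.96 to 0.39), Idi1 by 0.20 and Sqle by 0.19. Hmgcs1, Lss and Fdft1 differed by -0.13, -0.12 and 0.06. The median of the 7 members was 0.06, against 0.005 for all probe sets. No member was separate from its controls, where 16.7% of all probe sets were higher and 14% lower without overlap. No member had an unadjusted p under 0.05, against 5.81% of all probe sets, and 0.00675% of probe sets (1, of Tshz2) passed after adjustment.

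**Figure D2:**
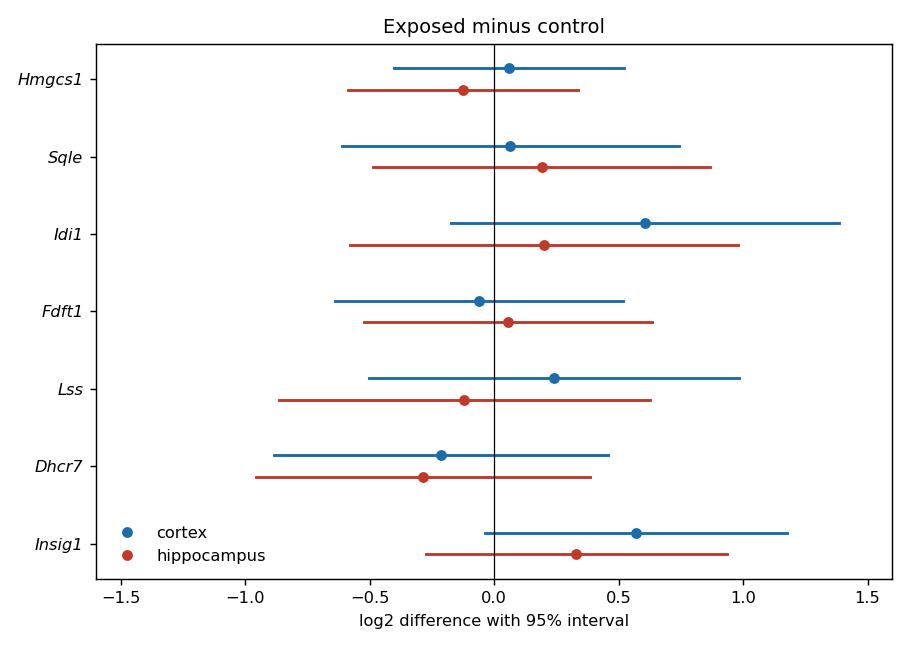
Log2 difference between exposed and control arrays for each member (horizontal axis), in cortex and hippocampus; points are differences of group means of 2 arrays and bars are 95% intervals from the limma fit. Every interval includes 0, and Insig1 in cortex, 0.57 with an interval from -0.04 to 1.18, comes nearest to leaving it out.

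Whether exposure acted differently on the members in the 2 tissues was tested as the exposure difference in hippocampus minus that in cortex. It ranged from -0.41 (Idi1; SE 0.51, 95% interval -1.51 to 0.70) to 0.13 (Sqle), and was -0.24 for Insig1 (SE 0.39, 95% interval -1.1 to 0.62). The adjusted p was 0.998 for all 7 members. The intervals are wide, so this test does not show that the tissues responded alike. No member had an unadjusted p under 0.05, against 3.45% of probe sets, and 0% of probe sets passed after adjustment.

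Averaged over both tissues, with the arrays of 1 arm and number combined, Insig1 was 0.45 higher in exposed samples (SE 0.21, 95% interval -0.01 to 0.91; 1.37-fold) and did not pass (adjusted p = 0.826). Idi1 differed by 0.40 (SE 0.28, 95% interval -0.22 to 1.03, adjusted p = 0.86) and Dhcr7 by -0.25. Sqle, Lss, Hmgcs1 and Fdft1 differed by 0.13, 0.06, -0.03 and -0.003, the last turning to 0.05 after quantile normalization and to 0.003 with arrays centred on their medians. No member had an unadjusted p under 0.05, against 5.97% of probe sets. An adjusted p under 0.05 was found for 0.00675% of probe sets (1, of the choroid plexus gene Ttr). Ttr was high on 1 array of each control number, hippocampus array 1 (19.51) and cortex array 6 (15.41). Averages by number therefore hide its spread within each tissue. Ttr was called in neither tissue, and a random replicate block gave 0 calls on average. In the 98 settings tried over all comparisons, 0 called a member.

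Array facts that touch these comparisons are few. Array medians lay between 5.21 and 5.40, and the 2 arrays of a group correlated at 0.9867 to 0.9915 over probe sets. Ttr measured 19.51 on control hippocampus array 1 and 15.41 on control cortex array 6, against 4.17 to 7.76 on the others, and the means of all 8 choroid plexus markers tested were lower in exposed than in control hippocampus (adjusted p from 0.809 to 0.899). The mean level of the choroid plexus list was 11.33 on control hippocampus array 1, 5.17 on its partner and 5.06 on both exposed hippocampus arrays; in cortex it was 6.21 on control array 6 and 4.0 to 4.17 on the others. Without those 2 arrays Insig1 differed by 0.47 in cortex and 0.41 in hippocampus. The labelled tissues fit their markers, since all 5 hippocampal markers tested were called higher in hippocampus in both arms and 5 of 6 probe sets of 5 cortical markers (Rorb has 2) were called lower in control hippocampus and 3 of 6 in exposed hippocampus.

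The second question was whether the pathway differed between hippocampus and cortex. In control arrays none of the 7 members passed, while 17.7% of probe sets did and 31.4% had an unadjusted p under 0.05; no member had one. Fdft1 differed by -0.55 (hippocampus minus cortex, as throughout; SE 0.27, 95% interval -1.12 to 0.03, adjusted p = 0.185), with means of 11.98 ± 0.25 (cortex; SD, n = 2) and 11.44 ± 0.01 (hippocampus; SD, n = 2). Both hippocampal arrays were below both cortical ones, as for 24.7% of probe sets. Dhcr7 differed by 0.50 (SE 0.31, 95% interval -0.17 to 1.17, adjusted p = 0.295), with means of 8.57 ± 0.31 (cortex; SD, n = 2) and 9.07 ± 0.25 (hippocampus; SD, n = 2) and no overlap, as for 34.5% of probe sets. Idi1 and Insig1 differed by -0.22 and -0.17. Lss, Hmgcs1 and Sqle differed by 0.15, 0.12 and 0.03, and with arrays centred on their medians these became -0.02, -0.05 and -0.14 (-0.07 for Sqle after quantile normalization). In whole tissue, a lower value can come from fewer cells of a type or from less RNA per cell, and these cannot be told apart. Markers of cell types differed between the tissues too: 3 of 7 astrocyte markers were called higher in hippocampus in both arms (Gfap 7.75-fold, Aqp4 2.47-fold and Gja1 2.47-fold in control arrays), and the mean level of that list was 11.76 to 11.91 in cortex and 12.51 to 12.69 in hippocampus. By sign, 6 of the 7 astrocyte markers were higher and 1 lower in control hippocampus, and 5 and 2 in exposed hippocampus. Aldh1l1 was lower without overlap in both arms (-0.64 in control and -0.56 in exposed arrays, neither called). Slc1a2 differed by 0.13 and -0.06. Of 7 neuronal markers, Snap25 was called lower in control hippocampus (1.46-fold) and Map2 higher in exposed hippocampus (1.64-fold). In control hippocampus 3 of 6 meningeal and 1 of 8 choroid plexus markers were also called higher, and 0 of 9 oligodendrocyte, 0 of 5 microglial and 0 of 5 endothelial markers were called. In exposed hippocampus 1 of 6 meningeal, 1 of 9 oligodendrocyte and 1 of 5 microglial markers were called higher, and none of the choroid plexus or endothelial ones. The part of these markers in the members' values was not tested.

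In exposed arrays none of the members passed, against 14.5% of probe sets (29.3% with an unadjusted p under 0.05, and no member among them). Idi1 differed by -0.62 between hippocampus and cortex (SE 0.36, 95% interval -1.40 to 0.16, adjusted p = 0.278) and Fdft1 by -0.43 (adjusted p = 0.311). Insig1 differed by -0.41 and Dhcr7 by 0.43. Lss, Hmgcs1 and Sqle differed by -0.22, -0.07 and 0.15, with Sqle at -0.01 after quantile normalization. All 7 members overlapped between the tissues here, where 35% of probe sets were higher and 22% lower in hippocampus without overlap. The sign for Fdft1, Idi1 and Insig1 was negative in both arms, and for Dhcr7 positive, under every scaling tried.

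The median of all probe sets was itself above 0 in the tissue comparisons, 0.10 in control and 0.13 in exposed arrays, against 0.03 and -0.22 for the members. It fell to -0.06 and -0.02 with arrays centred on their medians. On that scale Fdft1 differed by -0.71 (adjusted p = 0.0947) and Dhcr7 by 0.34 in control arrays, and Idi1 by -0.76 in exposed arrays. Of the calls in control arrays, 1491 of 2620 were higher in hippocampus (56.9%), which became 49.4% after quantile normalization and 41% of 2537 after centring. In exposed arrays 1370 of 2143 were higher (63.9%), then 51.4% of 2005 and 49.1% of 2037.

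The rest of the pathway was read from 5 lists with 55 genes, of which 40 were tested. In cortex 13 of the 40 were higher and 27 lower after exposure, beside 6905 higher and 7874 lower of all 14804 probe sets. In hippocampus the counts were again 13 and 27, beside 7513 higher and 7237 lower of all probe sets. The medians of the 40 were -0.13 and -0.11, and 0 passed limma's adjusted test in either tissue. In cortex 3 of 40 had an unadjusted p under 0.05, near the 6.18% of all probe sets, and in hippocampus 0 of 40, against 5.81%. These 3 were Abcg1, an exporter of cholesterol and target of the sterol-sensing LXR receptors (difference -0.80, SE 0.26, adjusted p = 0.74), Npc2, which binds cholesterol in lysosomes (0.70, SE 0.30, adjusted p = 0.801), and Acss2, which makes acetyl-CoA from acetate (0.64, SE 0.26, adjusted p = 0.791).

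Abcg1 measured 9.48 and 9.07 in control cortex and 8.60 and 8.36 in exposed cortex, and both exposed arrays were lower. Averaged over tissues it differed by -0.60 (adjusted p = 0.826). Stard4, a carrier of cholesterol through the cytosol and an SREBP2 target, differed by 0.55 on average (SE 0.24, adjusted p = 0.826). It measured 7.14 and 7.63 in control hippocampus and 8.06 and 8.12 in exposed hippocampus, and in exposed cortex array 6, at 9.01, stood above array 3, at 8.10. On average, Abcg1, Stard4 and Elovl6 were the 3 of 40 genes with an unadjusted p under 0.05, near the 5.97% of all probe sets. Elovl6, an elongase of fatty acids, differed by -0.67 (adjusted p = 0.826), and its highest values were 12.42 and 12.40, on the control arrays labelled 1. Npc2 and Acss2 had the lowest unadjusted p for the difference between tissues (-0.995 and -0.855, adjusted p = 0.998 for both), and 0 of the 40 genes passed there or on average.

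Of 6 regulators of the pathway tested, 0 passed limma's adjusted test after exposure in either tissue, and 0 had an unadjusted p under 0.05. Srebf2, the gene of SREBP2, measured 14.74 and 14.81 in control cortex, 14.75 and 14.89 in exposed cortex, 14.24 and 14.50 in control hippocampus and 14.48 and 14.77 in exposed hippocampus. It differed by 0.05 in cortex (95% interval -0.40 to 0.49) and 0.26 in hippocampus (95% interval -0.19 to 0.70), and between control tissues by -0.41 (adjusted p = 0.204). Insig2, the paralog of Insig1, differed by -0.13 in cortex and -0.21 in hippocampus, both opposite in sign to Insig1, with intervals that include 0. Cyp46a1, the neuronal hydroxylase that turns cholesterol into a form able to leave the brain, measured 12.82 and 12.32 in control cortex and 12.26 and 11.72 in exposed cortex. Its exposure difference was -0.58 in cortex (SE 0.31, 95% interval -1.26 to 0.10, adjusted p = 0.813) and -0.41 in hippocampus.

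Between tissues, 8 of the 40 other genes passed in control arrays and 4 in exposed arrays, beside 17.7% and 14.5% of all probe sets. Tmem97, a sterol-regulated membrane protein that binds NPC1, had the largest difference: it was 8.75 and 8.61 in control cortex and 7.01 and 5.66 in control hippocampus, 5.08-fold lower (difference -2.35, SE 0.38, adjusted p = 0.00119). In exposed arrays it was 8.48 and 8.23 in cortex and 5.81 and 5.91 in hippocampus, 5.64-fold lower (-2.50, SE 0.38, adjusted p = 0.00106). Cyp46a1 was 3.01-fold lower in control hippocampus, at 11.25 and 10.71 (-1.59, SE 0.31, adjusted p = 0.00423), and 2.67-fold lower in exposed hippocampus, at 10.90 and 10.25 (-1.42, SE 0.31, adjusted p = 0.0102).

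The 6 genes called higher in control hippocampus were Npc2 (1.30, adjusted p = 0.0103), the oxysterol hydroxylase gene Cyp7b1 (1.14, adjusted p = 0.0126), Me1, which supplies NADPH to lipid synthesis (0.89, adjusted p = 0.0331), Hsd17b7, an enzyme of the late sterol pathway (0.81, adjusted p = 0.0407), the transporter gene Abcg4 (0.79, adjusted p = 0.0408) and the fatty acid desaturase gene Fads2 (0.66, adjusted p = 0.0307). In exposed arrays Cyp7b1 (1.31, adjusted p = 0.00703) and Fads2 (0.86, adjusted p = 0.00928) were called higher again. Cyp7b1 measured 7.73 and 8.02 in control cortex and 9.26 and 8.77 in control hippocampus, and 7.55 and 7.64 against 8.82 and 8.99 in exposed arrays. Me1 was 0.82 higher in exposed hippocampus and just missed the threshold (adjusted p = 0.0524). Ebp, the sterol isomerase, was also 0.82 higher there (adjusted p = 0.0749). Fasn, of the fatty acid list, was lower in control hippocampus and came nearer to the threshold (-0.975, adjusted p = 0.0506). In exposed arrays Fasn differed by -0.52 (adjusted p = 0.298), and its tissues did not overlap in either arm.

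Tmem97 kept both calls in 16 of 16 alternatives. Cyp46a1 lost the control call without cortex control array 1 (-1.34, adjusted p = 0.0618) and the exposed call without exposed cortex array 3 (-1.15, adjusted p = 0.0985) or exposed hippocampus array 6 (-1.09, adjusted p = 0.0959). Npc2 lost its call without cortex control array 6 (1.14, adjusted p = 0.0924), without hippocampus control array 1 (1.01, adjusted p = 0.0677) and without both (0.85, adjusted p = 0.244). Cyp7b1 lost the control call without cortex control array 1 (0.995, adjusted p = 0.111), without hippocampus control array 1 (0.90, adjusted p = 0.0803) and without the 2 arrays high in Ttr (1.04, adjusted p = 0.133), and the exposed call without exposed cortex array 3 (1.27, adjusted p = 0.0527) or exposed hippocampus array 6 (1.23, adjusted p = 0.0549). The calls of Hsd17b7, Abcg4, Fads2 and Me1 in control arrays were lost in 11, 10, 7 and 5 of 16 alternatives. Among these were leaving out any one of cortex control arrays 1 and 6 and hippocampus control array 1. The calls were also lost without the 2 arrays high in Ttr, where the 4 genes differed by 0.96, 0.63, 0.59 and 0.70. Fads2 in exposed arrays was lost without exposed cortex array 6 (0.80, adjusted p = 0.0658) or exposed hippocampus array 3 (0.82, adjusted p = 0.0536).

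**Figure D3:**
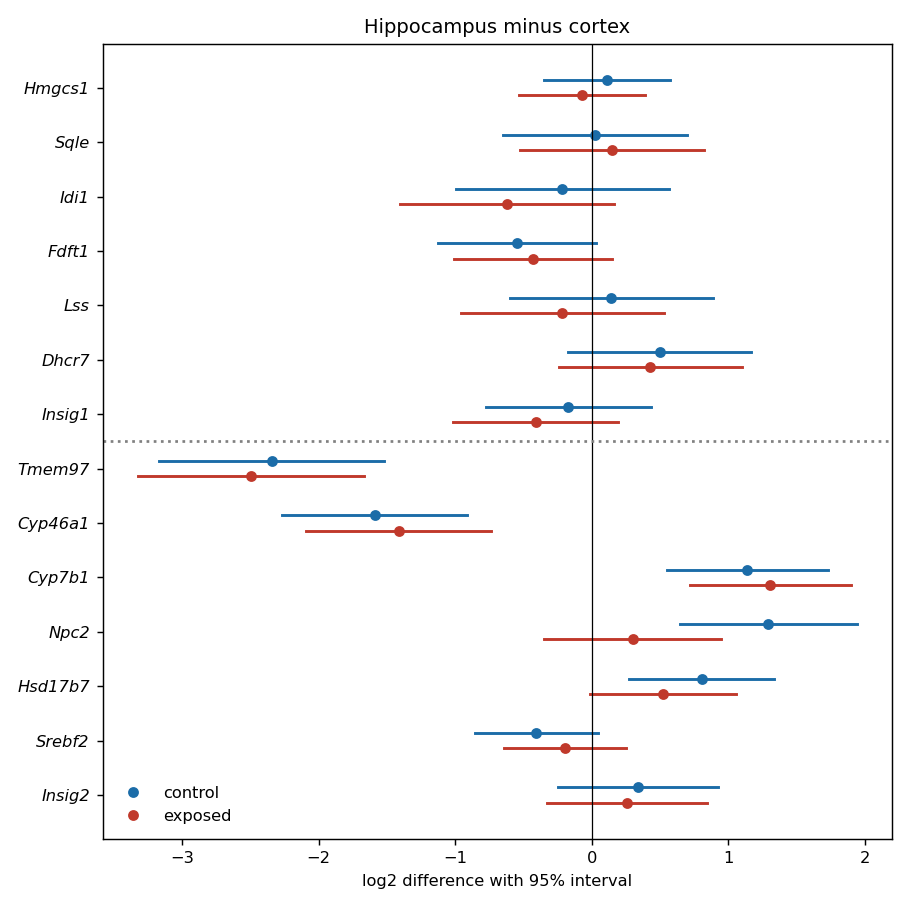
Log2 difference between hippocampus and cortex (horizontal axis) in control and in exposed arrays, for the members above the dotted line and for named genes of the other lists below it; points are differences of group means of 2 arrays and bars are 95% intervals from the limma fit. All intervals of the members include 0, while those of Tmem97, Cyp46a1 and Cyp7b1 lie to one side of it in both arms.

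The gaps between the 2 arrays of a group followed the array number for some members, a pattern chosen after the values were seen and given without a test. The labels do not say what arrays numbered 6 share across groups. Those of 1 arm may come from 1 animal, so the 4 gaps of a gene may not be independent. Idi1 was higher on the array numbered 6 in all 4 groups, by 0.74 in control cortex, 0.89 in exposed cortex, 0.51 in control hippocampus and 0.49 in exposed hippocampus. Sqle was higher there by 0.54, 0.55, 0.57 and 0.13, and Hmgcs1 by 0.17, 0.29, 0.18 and 0.31. These are 3 of the 7 members (42.9%), against 6.96% of all probe sets higher on array 6 in all 4 groups and 9.82% lower. Fdft1 was higher on array 6 in cortex, by 0.36 and 0.48, and lower in hippocampus, by -0.01 and -0.52. Lss, Dhcr7 and Insig1 went in both directions, with gaps from -0.70 to 0.79, -0.65 to 0.44 and -0.54 to 0.56. None of the 7 was lower on array 6 in every group.

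Of the 40 other pathway genes, 5 were higher on array 6 in all 4 groups (12.5%) and 7 were lower (17.5%). The 5 were Cyp51, the lanosterol demethylase, with gaps from 0.18 to 0.73, Hsd17b7, from 0.05 to 0.29, Srebf2, from 0.07 to 0.29, Stard4, from 0.05 to 0.91, and the lipoprotein receptor gene Lrp1, from 0.33 to 1.11. The 7 lower genes were the cholesterol synthesis enzymes Mvk and Fdps, and Apoe, Lcat, Cyp46a1, Elovl6 and Fads2. Enzymes of cholesterol synthesis were thus found on both sides. Array medians were slightly lower on array 6 in 4 of 4 groups, with gaps of -0.04 to -0.01. Among marker lists, 1 of 7 neuronal markers and 0 of 9 oligodendrocyte, 0 of 7 astrocyte, 0 of 5 microglial, 0 of 5 endothelial, 1 of 6 meningeal and 0 of 8 choroid plexus markers were higher on array 6 in all 4 groups, and their part in the pattern was not tested. Each of the 4 groups holds 1 array numbered 6. For Idi1 the exposure difference between arrays numbered 6 was 0.68 in cortex and 0.19 in hippocampus, and between arrays 3 and 1 it was 0.53 and 0.21. For Insig1 these were 0.95 and 0.14, and 0.19 and 0.52, all positive. The other 5 members did not keep 1 sign over these 4 differences. The labels do not match arrays across the arms, and how many of all probe sets keep 1 sign was not counted. For the arrays numbered 6, in cortex and hippocampus, Hmgcs1 differed by 0.12 and -0.06, Sqle by 0.07 and -0.03, Fdft1 by 0 and -0.20, Lss by 0.78 and -0.71 and Dhcr7 by -0.64 and -0.79. For arrays 3 and 1, Hmgcs1 differed by 0 and -0.19, Sqle by 0.06 and 0.41, Fdft1 by -0.12 and 0.31, Lss by -0.30 and 0.47 and Dhcr7 by 0.21 and 0.22.

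**Figure D4:**
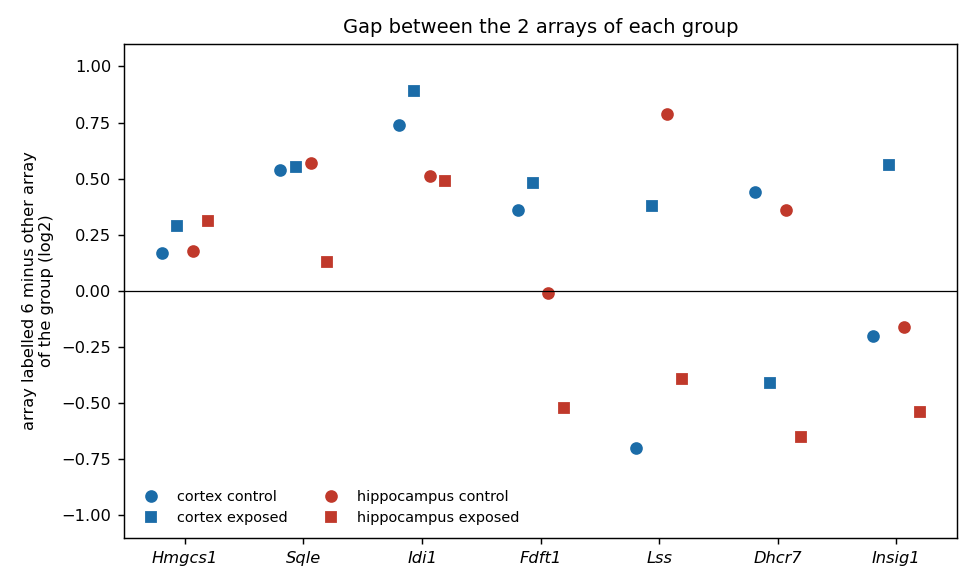
Log2 value of the array numbered 6 minus that of the other array of its group (vertical axis) for each member, 1 point per group. Hmgcs1, Sqle and Idi1 lie above 0 in all 4 groups, with Idi1 between 0.49 and 0.89, and the other 4 members lie on both sides of it.

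How far the members share a pattern was described by the root mean square distance between profiles over the 8 arrays, each profile centred on its own mean. The mean profile of the members was shallow, from -0.22 on control hippocampus array 1 to 0.33 on exposed cortex array 6. Hmgcs1 lay nearest to it, at 0.157, with 0.8% of 13198 genes nearer, followed by Sqle at 0.177 (1.7% nearer). Fdft1, Lss and Insig1 lay at 0.251, 0.267 and 0.272, Idi1 at 0.34 and Dhcr7 farthest at 0.411, with 49.9% of genes nearer. Each member is part of this mean, which draws it nearer. Genes outside the set that lay nearest to the mean profile were Dnpep (0.083), Zfp865 (0.095), E130308A19Rik (0.096), Shoc2 (0.096) and Ipo5 (0.099).

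The gene nearest to each member was Sohlh1 for Hmgcs1 (0.066), Sp140 for Lss (0.053), 1190005I06Rik for Dhcr7 (0.074), Ogfod1 for Sqle (0.083), Cep126 for Insig1 (0.103), Ccdc61 for Fdft1 (0.104) and Galnt7 for Idi1 (0.159). The members were left out of this search, and the 40 other pathway genes tested are few among 13198 genes. That none of the nearest genes is one of the 40 therefore says little. The closest members, Hmgcs1 and Sqle, lay 0.194 apart. Of all genes, 4.5% were nearer to Hmgcs1 than Sqle was, and 0.9% were nearer to Sqle than Hmgcs1 was. The farthest members, Idi1 and Dhcr7, lay 0.709 apart. Here 69.7% of genes were nearer to Idi1 than Dhcr7 was, and 85.4% were nearer to Dhcr7 than Idi1 was. The distance grows with a gene's own variation, and all profiles share the same 8 arrays, so nearness here describes these arrays alone.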

How the data were processed

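Total RNA was extracted with a NucleoSpin kit, accepted at an integrity number above 7.0, and 250 ng was labelled with GeneChip WT kits, per the labels' protocols. The authors deposited normalized log2 values per probe set, made with RMA per the submitters' processing notes. The base of the logarithm is not stated in the deposited table and was taken from the usual output of RMA and the range, 1.59 to 19.93. Scanner files were not used here, so no level is shown to be above background.

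Of 22206 probe sets, 19572 have 1 symbol in the platform annotation. The lowest 33.3% by mean (below 3.938) were left out, and 14804 were tested with limma 3.58.1 in R 4.3.3 (1 mean per group over all 8 arrays, eBayes with trend), two-sided, with Benjamini-Hochberg adjustment over all probe sets tested and a threshold of 0.05. For the exposure average, the cortex and hippocampus arrays of 1 arm and number were averaged first. The fits were tested on simulated data.

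The members and lists were chosen with earlier results of these data known. Named genes are the members, Srebf2, Insig2 and Cyp46a1, and per list and comparison up to 4 with the smallest p among those past the threshold, else up to 2 with an unadjusted p under 0.05. Genes that followed the array number, and Fasn as a near miss, are named outside this rule. Nearest genes are the 5 closest to the mean profile and 1 per member. Genes of the lists without a probe set (16 of 124) were not analysed here. Alternatives were no filter or a 50% filter, quantile normalization, centring on array medians, no trend, array weights, leaving out arrays, replicate blocks and fits of 1 tissue alone. Promoters are from RefSeq (GRCm38.p6); windows of Sqle and Fdft1 were not used here.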

Additional observations from a re-analysis of the deposited data

How the results depend on the processing

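With 2 arrays a group, the small number of arrays limits every comparison. Over 644 alternative fits of the members, 582 kept the direction and 62, in 27 of 42 results, reversed it; 0 passed the threshold, and the lowest adjusted p was 0.0804 (Idi1 between exposed tissues). Other named genes had 565 alternative fits: 511 kept their result, 46 lost the call and 8 reversed. Fits without the 2 arrays high in Ttr, and without single arrays, were not run for the average, where both arrays of a number were left out instead.

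Probe sets called in cortex (1) numbered 0 with quantile normalization and without trend, 2 with array weights, with a random replicate block and in cortex alone, 3 without the arrays high in Ttr, and 0 to 2 leaving out single arrays. In hippocampus (1) they numbered 0 with quantile normalization, without trend, with weights, without the arrays high in Ttr and in hippocampus alone, and 0 to 56 leaving out arrays. For the difference between tissues (0) a replicate block gave 1 and leaving out arrays 0 to 30. Between control tissues (2620) the count was 1155 without the arrays high in Ttr and 1289 to 2532 leaving out arrays, and between exposed tissues (2143) 1074 to 2440. For the average (1) a random replicate block gave 0 and leaving out a number 1 to 26. The replicate block changed no call of a member, and with it 3433 probe sets were called between control and 2835 between exposed tissues. Deviations of same-numbered arrays of the 2 tissues correlated at -0.001 in control and 0.276 in exposed arrays. These correlations cannot show whether the numbers pair samples. The main fits did not pair arrays by number, while the average combined those of 1 arm and number.

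Reversed log2 differences were as follows. Quantile normalization gave Fdft1 0.04 in cortex and 0.046 on average, and Sqle -0.074 between control and -0.013 between exposed tissues. Centring gave Hmgcs1 -0.045, Sqle -0.135 and Lss -0.015 between control tissues and Fdft1 0.003 on average. Without the arrays high in Ttr, cortex gave Fdft1 0.12, Lss -0.11 and Dhcr7 0.005, hippocampus Sqle -0.095 and Idi1 -0.055, the difference between tissues Sqle -0.43 and Fdft1 -0.06, and control tissues Idi1 0.41. The causes were not tested.

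Leaving out single arrays, values in cortex ranged from -0.085 to 0.205 (Hmgcs1), -0.21 to 0.34 (Sqle), -0.3 to 0.18 (Fdft1), -0.11 to 0.59 (Lss), -0.435 to 0.005 (Dhcr7) and -0.025 to 0.115 (Srebf2). In hippocampus they ranged from -0.28 to 0.03 (Hmgcs1), -0.095 to 0.475 (Sqle), -0.055 to 0.455 (Idi1), -0.205 to 0.315 (Fdft1), -0.515 to 0.275 (Lss) and -0.61 to 0.04 (Dhcr7). For the difference between tissues the ranges were -0.16 to 0.41 (Sqle), -0.85 to 0.04 (Idi1), -0.145 to 0.375 (Fdft1), -0.755 to 0.035 (Lss), -0.395 to 0.255 (Dhcr7), -0.52 to 0.04 (Insig1), -0.245 to 0.085 (Insig2) and -0.15 to 0.5 (Cyp46a1). Between control tissues they were -0.26 to 0.31 (Sqle), -0.585 to 0.155 (Idi1) and -0.25 to 0.54 (Lss), and between exposed tissues -0.225 to 0.085 (Hmgcs1) and -0.125 to 0.425 (Sqle). On average, leaving out both arrays of a number, they were -0.183 to 0.117 (Hmgcs1), -0.15 to 0.405 (Sqle), -0.09 to 0.085 (Fdft1) and -0.515 to 0.015 (Dhcr7).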
